A study of Mus musculus with 3 samples.

Results

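Stat3, the transcription factor that carries the signal of interleukin-6 type cytokines to the nucleus, was followed with 7 genes of the same circuit in kidney RNA of mice with early anti-GBM glomerulonephritis. The 8 genes are the receptors Osmr and Lifr, Stat3 itself, the feedback inhibitors Socs1, Socs2 and Socs3, and the C/EBP transcription factors Cebpb and Cebpd. They were chosen by name with earlier results of this contrast known, so their values are given as a description with no test. Each of the 8 had a mean over the arrays, as did 7235 genes in all, and 11 of their 15 rows had a value on all 3 arrays. A gene's mean uses the table rows that the platform annotation assigns to that gene alone and that hold a value on all 3 arrays.

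The mice were BALB/c animals given antibody to the glomerular basement membrane (GBM), the filter layer of the glomerulus, and studied on day 1. The group holds 3 separate mice, named here 11, 12 and 13, each on its own 2-colour array. The other channel of every array held 1 pool of RNA from 5 normal BALB/c mice, so the spread between control mice was not measured. The anti-GBM RNA carried Cy5 and the pool carried Cy3 on every array, and with no dyes swapped a probe's dye bias stays in its value. Whole kidney was used, so a smaller number of cells of a type and less RNA per cell cannot be told apart.

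All values are log ratios after each array was centred on its median, and errors are SDs over n = 3 mice. The base of the logarithm and the direction of the ratio are not stated in the sources used here. A positive value likely means more transcript in the anti-GBM kidneys, since their RNA carried the red dye and ratios are usually given as red divided by green. If the ratio ran the other way, each sign below would turn. Between 10789 and 11483 of 16281 rows had a value other than 0 on an array, and an exact 0 was read as no estimate. The arrays correlated with each other at r = 0.59 to 0.753 over the rows measured on all of them. A log ratio holds no level, so the labelled tissue could not be checked by the levels of its markers. All 9 collecting duct markers looked up, and 5 of 12 proximal tubule markers, had a value on all 3 arrays.

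Cytokines of the interleukin-6 family bind receptor pairs built around gp130, the product of Il6st. Osmr and Lifr encode partner chains that bind oncostatin M and leukaemia inhibitory factor. The receptors activate JAK kinases, which phosphorylate STAT3, and STAT3 enters the nucleus and switches on its targets. SOCS3 and SOCS1 are classical targets that act back on the receptor and the JAKs, while SOCS2 mainly restrains growth hormone signalling. C/EBP-beta and C/EBP-delta act beside STAT3 on acute-phase genes, and in kidney the circuit is known from injured tubule cells and inflamed glomeruli.

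Of the 8 genes, Stat3 had the highest mean log ratio and Socs3 the lowest, and the bases upstream of these 2 genes are shown because Socs3 is a classical STAT3 target. Each stretch is the 250 bases before the RefSeq transcription start in GRCm38.p6, on the gene's own strand, 5′ to 3′. Capitals mark a match to TTCNNNGAA, the palindromic letters of a STAT site.
Stat3, chr11:100939541-100939790, minus strand: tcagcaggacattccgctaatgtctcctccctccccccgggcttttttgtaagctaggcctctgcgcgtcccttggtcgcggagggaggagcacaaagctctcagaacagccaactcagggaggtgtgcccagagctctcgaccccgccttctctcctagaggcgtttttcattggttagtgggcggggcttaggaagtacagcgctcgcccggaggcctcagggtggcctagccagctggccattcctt
Socs3, chr11:117969367-117969616, minus strand: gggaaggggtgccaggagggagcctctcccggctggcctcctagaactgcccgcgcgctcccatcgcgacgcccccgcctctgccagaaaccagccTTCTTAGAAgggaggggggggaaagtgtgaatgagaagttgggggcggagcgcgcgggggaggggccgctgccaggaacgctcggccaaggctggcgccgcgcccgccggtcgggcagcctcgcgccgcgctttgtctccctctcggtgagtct
The Socs3 stretch held 1 match, TTCTTAGAA, whose first base lies 154 bases before the start. The Stat3 stretch held none. The promoter table used here, taken from RefSeq, held 7 starts for 6 of the 8 genes, and Socs2 and Cebpd were not analysed here. The Socs3 start was the only one of these 7 with TTCNNNGAA in its upstream 250 bases. The C/EBP letters TTGCNNAA, searched on both strands, were in 0 of the 7. Among 32851 listed starts, 7.02% had the STAT letters and 9.56% the C/EBP letters in the same window. A match is a description of letters and no match says only that these letters are not in this window.

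The receptor genes lay close to 0. Osmr was at 0.11 in mouse 11, 0.20 in mouse 12 and 0.14 in mouse 13, with a mean of 0.15 ± 0.04. All 3 mice were above 0, and the SD lay at the 8.74th percentile of all genes. Of all genes, 56.5% had the same sign on all 3 arrays, so a shared sign, here and below, is common. The 2 measured rows of Osmr, numbered 9166 and 9570, had means of 0.12 and 0.18 and ranked the mice differently, with mouse 11 highest in row 9166 (0.18) and lowest in row 9570 (0.05). The SDs of these rows were 0.06 and 0.12, both above the 0.04 of the gene. Row 16588 of Osmr was listed at 0 on every array. Lifr was at -0.10, -0.13 and 0.03 in mice 11, 12 and 13, with a mean of -0.07 ± 0.08. The mice thus fell on both sides of 0. These values come from row 15344, which had 4 rows with a mean below -1 within 100 row numbers of it. The other Lifr row, 4826, gave a value for mouse 12 alone, 0.27, opposite in sign to row 15344 in that mouse. The log ratio of Osmr exceeded that of Lifr by 0.21, 0.33 and 0.12 within the arrays of the mice in that order, 0.22 ± 0.10 on average.

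Stat3 had the highest mean of the 8 genes. Its gene values were 0.41 in mouse 11, 0.65 in mouse 12 and 0.64 in mouse 13, with a mean of 0.57 ± 0.14. Every mouse was above 0, and mouse 11 was the lowest. The mean is a 1.48-fold ratio if the base is 2 and a 3.70-fold ratio if it is 10, and it lay at the 98.4th percentile of the gene means. Both Stat3 rows were above 0 in each mouse. Row 3210 was at 0.24, 0.38 and 0.55 in mice 11, 12 and 13, and row 8943 was at 0.58, 0.93 and 0.73. Row 8943 was therefore the higher one in each mouse, and the size of the Stat3 value depends on the row: with 1 row per gene, which takes row 3210 for its smaller SD, the mean was 0.39.

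**Figure D1:**
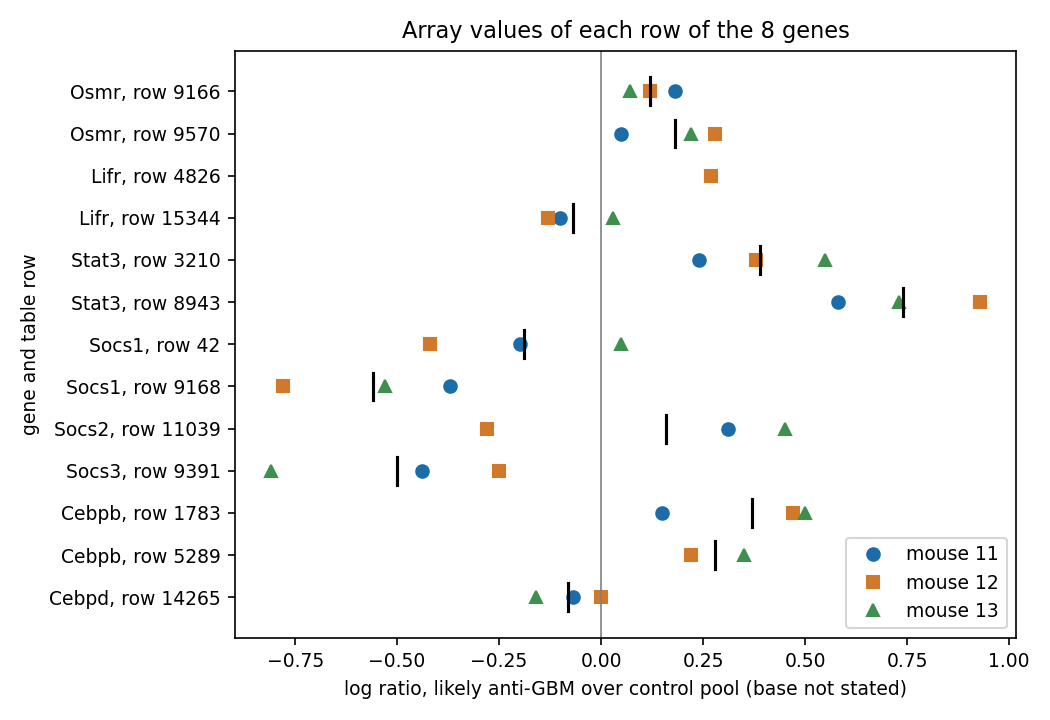
Centred log ratio (x axis, base not stated) of each table row with a value (y axis) for mice 11, 12 and 13, with a black line at the mean of rows measured on at least 2 arrays. Both Stat3 rows lie above 0 in each mouse, the Socs3 row lies below 0 in each mouse, and the Socs2 row has mouse 12 on the other side of 0 from mice 11 and 13.

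Among the feedback inhibitors, the gene values of Socs3 and Socs1 were below 0 in each mouse, while Socs2 had no single direction. Socs3, whose protein binds the activated gp130 receptor and blocks JAK, was at -0.44, -0.25 and -0.81 in mice 11, 12 and 13. All 3 mice were below 0, with mouse 13 lowest. The mean of -0.50 ± 0.29 is a 1.41-fold lower ratio if the base is 2 and a 3.15-fold lower ratio if it is 10, and it lay at the 2.24th percentile. Socs3 has 1 row in the table, so no second row bears on this value. Its SD was at the 93rd percentile of all genes.

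Socs1, which inhibits JAK kinases directly and is best known for restraining interferon signals, was at -0.28, -0.60 and -0.24 in mice 11, 12 and 13. The mean was -0.37 ± 0.20, and all 3 gene values were below 0. Its rows differed in size. Row 9168 was at -0.37, -0.78 and -0.53, while row 42 was at -0.20, -0.42 and 0.05. Mouse 13 was therefore on both sides of 0 in the 2 rows, and mouse 12 was the lowest in both. With 1 row per gene, which takes row 9168, the mean of Socs1 was -0.56.

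Socs2, the inhibitor of the growth hormone receptor, was at 0.31 in mouse 11, -0.28 in mouse 12 and 0.45 in mouse 13. Mice 11 and 13 were above 0 and mouse 12 below it, so the mean of 0.16 ± 0.39 is smaller than the spread. The SD of Socs2 was at the 98.1st percentile of all genes. Without mouse 12 the mean was 0.38, and without mouse 13 it was 0.01. The other Socs2 row, 9167, was listed at 0 on all arrays. Within the arrays, the log ratio of Socs2 exceeded that of Socs3 by 0.75 in mouse 11 and 1.27 in mouse 13 and was 0.04 below it in mouse 12 (a difference of -0.04).

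Cebpb, a bZIP factor of the acute-phase response, was at 0.15, 0.47 and 0.50 in mice 11, 12 and 13, with a mean of 0.37 ± 0.20 at the 94.8th percentile. Each mouse was above 0 and mouse 11 was again the lowest. These values come from row 1783. Row 5289 of Cebpb was at 0.22 and 0.35 in mice 12 and 13 and listed at 0 in mouse 11. Averaging that row in gave a mean of 0.31 when rows measured on 2 arrays were admitted. Cebpd, the related factor that usually rises early in the acute phase, was at -0.07, -0.005 and -0.16 in the same order, with a mean of -0.08 ± 0.08 at the 36th percentile. The Cebpd values were near 0, and without the centring mouse 12 was above 0. The log ratio of Cebpb exceeded that of Cebpd by 0.21, 0.47 and 0.66 within the 3 arrays, 0.45 ± 0.22 on average.

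From the highest mean to the lowest the order was Stat3, Cebpb, Socs2, Osmr, Lifr, Cebpd, Socs1 and Socs3. The ranges over the mice overlapped between Stat3 and Cebpb, Cebpb and Socs2, Socs2 and Osmr, Lifr and Cebpd, and Socs1 and Socs3. They did not overlap between Osmr (lowest mouse 0.11) and Lifr (highest mouse 0.03), or between Cebpd (lowest mouse -0.16) and Socs1 (highest mouse -0.24). Within each array the log ratio of Stat3 exceeded that of Cebpb, by 0.26, 0.19 and 0.14 in mice 11, 12 and 13, although their ranges overlap. Stat3 exceeded Socs3 by 0.85, 0.90 and 1.45 in the same order, 1.07 ± 0.34 on average, and Socs1 by 0.94 ± 0.29. The centring of an array cancels in these differences. Socs1 and Socs3 were not ordered: the log ratio of Socs1 exceeded that of Socs3 in mice 11 and 13 by 0.15 and 0.57, and in mouse 12 the difference was -0.35. The median of the 8 means was 0.04, against -0.001 for all genes.

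**Figure D2:**
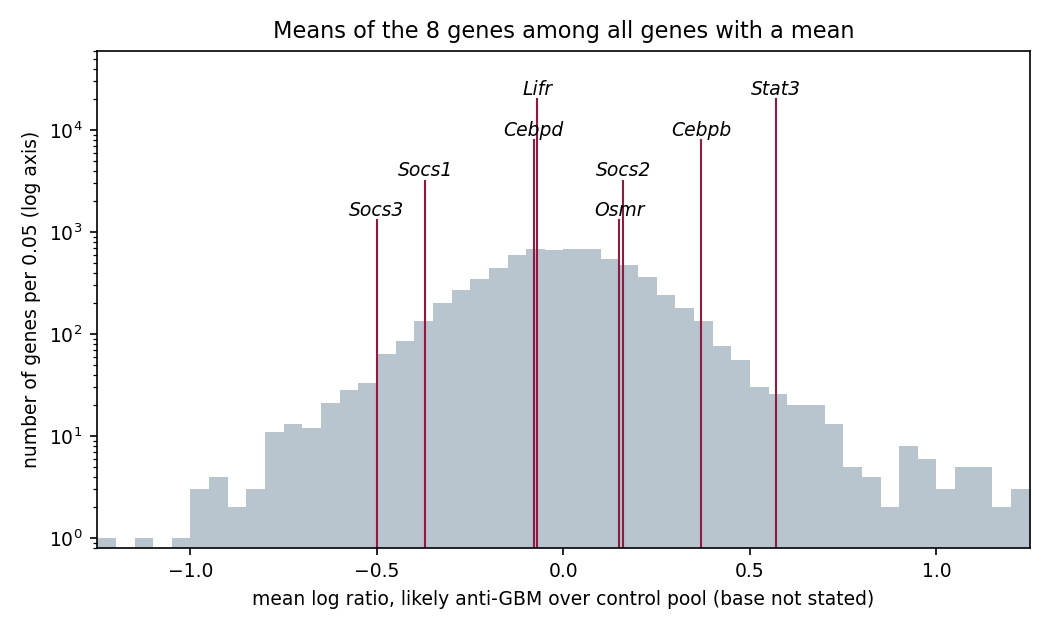
Number of genes per 0.05 of mean log ratio (y axis, log scale; x axis, base not stated, with the most extreme genes outside the plotted range) and the means of the 8 genes as vertical lines. Stat3 (0.57) and Cebpb (0.37) lie to the right, Socs1 (-0.37) and Socs3 (-0.50) to the left, and Osmr, Socs2, Lifr and Cebpd within the bulk of the genes.

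The genes with the nearest pattern were found by the root mean square difference over the 3 arrays, which is a short profile that many genes can share. Nearest to Stat3 was Ifrd1 (difference 0.045), at 0.46, 0.65 and 0.58 in mice 11, 12 and 13, followed by Rln1 (0.055). Nearest to Socs3 were Aldh1l1 (0.035), at -0.42, -0.29 and -0.78, and Endog (0.042). Nearest to Cebpb were Treh (0.025) and Rrm2 (0.034), and nearest to Socs1 were Ppp2r2b (0.015) and Hmgb1 (0.027). Socs2 was followed most closely by Mlkl (0.037), which at 0.30, -0.23 and 0.43 also had mouse 12 on the other side of 0, and by Ackr3 (0.051). For the genes near 0 the nearest were Aqp1 and Atxn7l1 for Osmr, Mpp2 and Zdhhc16 for Lifr, and Epn1 and Sike1 for Cebpd.

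The question for the rest of the circuit was which of its genes differed between the anti-GBM kidneys and the pool. Here the test is limma's test of the mean log ratio against 0, with Benjamini-Hochberg adjusted p under 0.05 over all 7235 genes as the threshold. It called 19.4% of all genes, 9.48% higher and 9.97% lower. Of 61 measured genes in 7 lists of the pathway, which leave out the 8 genes above, 10 were called higher and 9 lower, which is 31.1%, and 42 did not pass. The median of these 61 means was 0.02. Most of the calls, 9 higher and 4 lower, came from the list of STAT3 and C/EBP target genes, with 27 measured genes. That list was written with values of its genes in these data known, so the pooled share is no independent evidence. A plain one-sample test without limma's moderation called 0 of the 61 (17 at an unadjusted p under 0.05), and limma with exact zeros read as a log ratio of 0 called 0 of 85 (23 at an unadjusted p under 0.05).

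**Figure D3:**
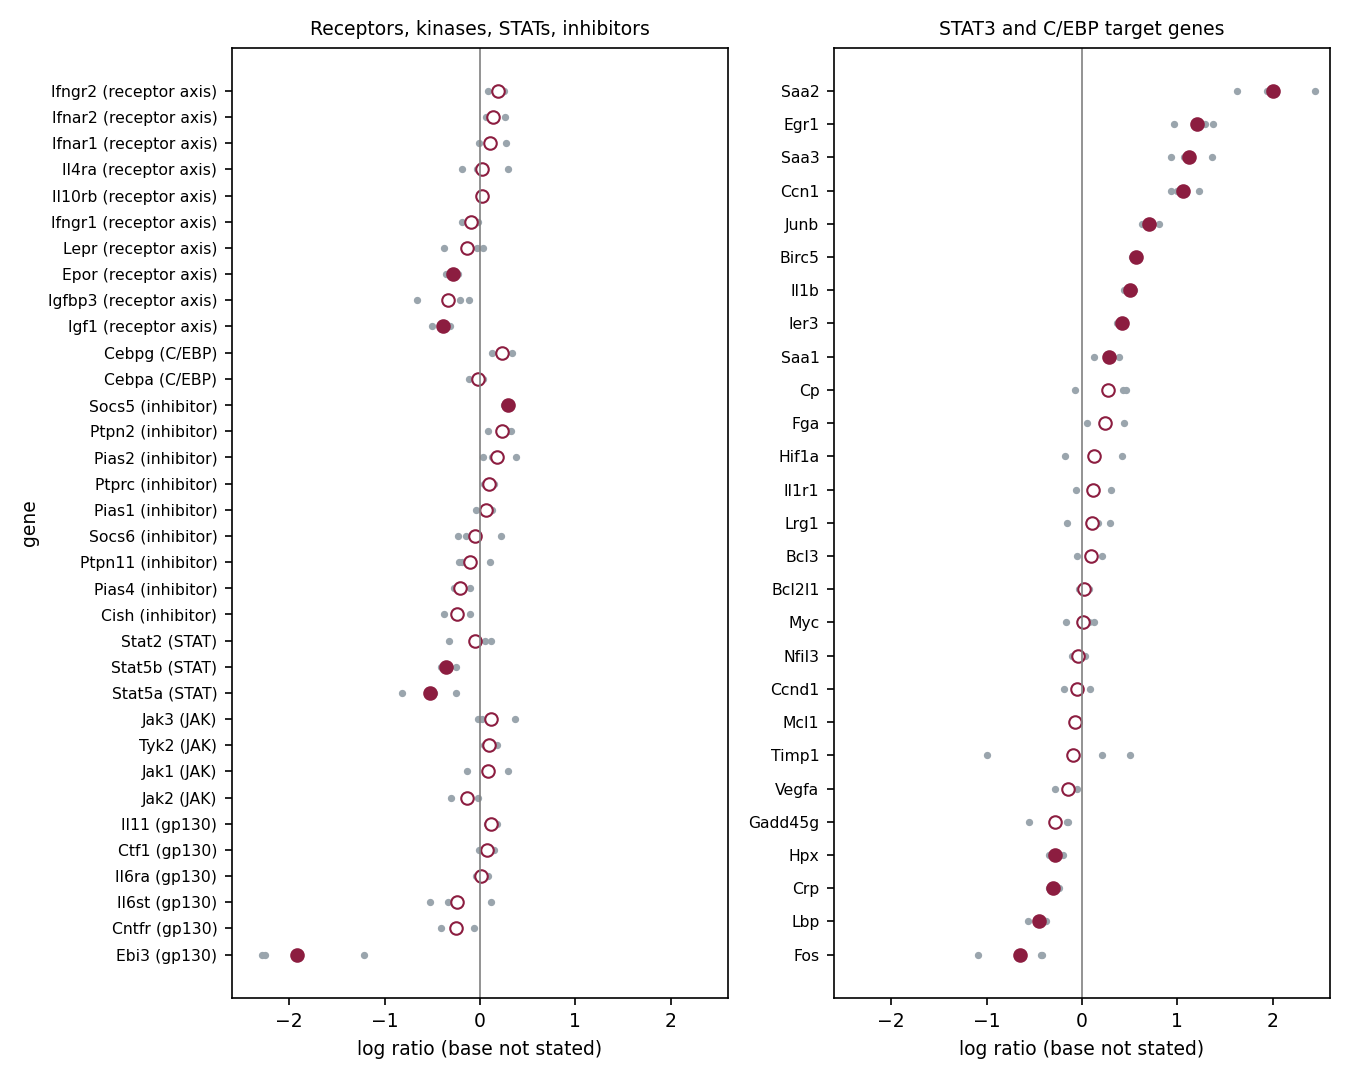
Mean log ratio (x axis, base not stated) of the measured genes of the pathway lists (y axis), filled where limma's adjusted p was under 0.05, with small grey points for the 3 mice. In the left panel Ebi3, Stat5a, Stat5b, Igf1 and Epor are called lower and Socs5 is called higher, and in the right panel 9 target genes are called higher and 4 lower.

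Upstream of Stat3, 6 of 16 listed cytokine and receptor genes around gp130 were measured. By limma 1 of them was lower and 0 were higher, the other 5 did not pass, and 2 had an unadjusted p under 0.05. The called share of 16.7% is near the 19.4% of all genes. The lower gene was Ebi3, which encodes a subunit shared by heterodimeric cytokines, at -2.29, -2.25 and -1.21 in mice 11, 12 and 13, a mean of -1.92 ± 0.61 (adjusted p = 0.00165). Its row had 20 rows with a mean below -1 within 100 row numbers, and after subtraction of the local median, over its row and the 50 table rows on each side, it was at -1.75 (adjusted p = 0.00183). A median responds little to a minority of very low rows, so this value does not tell whether Ebi3 is low together with them. That was not tested. Il6st passed as lower without mouse 11 (adjusted p = 0.0312), and the receptor gene Cntfr without mouse 12 (adjusted p = 0.0439). The shared receptor gene Il6st was at 0.12, -0.52 and -0.33 in mice 11, 12 and 13, with a mean of -0.24 ± 0.32 (adjusted p = 0.184). Its second row, 283, was at 0.01 and -0.07 in mice 11 and 12, so the low value of mouse 12 was not repeated there. The receptor Il6ra was at 0.01 ± 0.07 (adjusted p = 0.913), with row means from -0.24 to 0.20. The cytokine Il6 had a value in mouse 11 alone, 0.38, and both rows of Lif were listed at 0 on all arrays. Il6st, Il6ra, Il6 and Lif are named here after their values were seen, as the partners of the 8 genes.

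None of the 4 JAK kinase genes passed in limma, with 0 at an unadjusted p under 0.05 and 0 by the plain test or with the trended prior. Jak2, a kinase used by many cytokine receptors, was at -0.14 ± 0.15 (adjusted p = 0.264), with 17 very low rows near one of its rows. Jak3 was at 0.12 ± 0.21 and Tyk2 at 0.10 ± 0.07, with Tyk2 row means of -0.17 and 0.37. The other C/EBP genes also had 0 of 2 past limma's test, with 1 at an unadjusted p under 0.05 and 0 by the plain test or with the trended prior. Cebpg was at 0.23 ± 0.11 (adjusted p = 0.0757) and Cebpa, a factor of differentiated cells, at -0.02 ± 0.08.

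Of the other STAT genes, 2 of 3 measured ones were lower and none was higher. The called share was 66.7%, from only 3 genes, against 19.4% of all genes. Stat5a, which carries growth hormone and prolactin signals, was at -0.82, -0.25 and -0.48 in mice 11, 12 and 13. All 3 mice were below 0, and the mean was -0.52 ± 0.28 (adjusted p = 0.0196). Its close relative Stat5b was at -0.41, -0.25 and -0.38, a mean of -0.35 ± 0.08 (adjusted p = 0.0198). The 2 transcripts share long similar stretches, and cross-hybridization between them cannot be told apart from their own signals. Without mouse 11 the adjusted p was 0.0655 for Stat5a and 0.114 for Stat5b. Leaving out mouse 13 gave Stat5b an adjusted p = 0.0505. Its row had 4 very low rows within 100 row numbers, and after subtraction of the local median it was at -0.22 (adjusted p = 0.0636). Stat2, of the interferon pathway, was at -0.05 ± 0.24 and did not pass.

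A list that joins growth hormone genes with other receptors that signal through STAT factors had 10 measured genes, most of them receptors of interferons and other cytokines. By limma 2 were lower and 0 were higher, with 4 at an unadjusted p under 0.05, and the called share of 20% is near the 19.4% of all genes. Igf1, the growth factor that growth hormone induces, was at -0.38, -0.31 and -0.50 in mice 11, 12 and 13, a mean of -0.39 ± 0.09 (adjusted p = 0.0134). Its row means were -0.63 and -0.16, and with 1 row per gene it was at -0.16 (adjusted p = 0.231). The erythropoietin receptor gene Epor was at -0.28 ± 0.06 (adjusted p = 0.0337), a call that ended when any 1 mouse was left out (adjusted p from 0.0594 to 0.141). The growth hormone receptor gene Ghr had no row measured on all 3 arrays. Its row 8384 was at -0.03 and -0.20 in mice 11 and 12.

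Of the other negative regulators, 1 of 9 measured genes was higher and 0 were lower, a called share of 11.1% against 19.4% of all genes. Socs5, a further member of the SOCS family, was at 0.25, 0.30 and 0.33 in mice 11, 12 and 13, a mean of 0.29 ± 0.04 (adjusted p = 0.0289). The 3 mice lay close together, but the call ended when any 1 of them was left out (adjusted p from 0.0694 to 0.114), and with rows measured on 2 arrays averaged in the mean was 0.21 (adjusted p = 0.128). Cish, the STAT5-induced member of the family, had row means of -0.60 and 0.11 and a gene mean of -0.24 ± 0.14 (adjusted p = 0.0723). It passed as lower with 1 row per gene (-0.60, adjusted p = 0.00942) and after subtraction of the local median (-0.31, adjusted p = 0.0252). The phosphatase gene Ptpn2 was at 0.23 ± 0.13 (adjusted p = 0.076).

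Among genes known as targets of STAT3 or C/EBP factors, 9 of 27 measured genes were higher and 4 lower, while 14 did not pass. The called share was 48.1% against the 19.4% of all genes, with a median of 0.11. This list holds genes whose values in these data were known when it was written, so its share is no independent evidence. The serum amyloid genes Saa2 and Saa3, acute-phase apolipoproteins, were at 2.00 ± 0.42 (adjusted p = 0.000408) and 1.12 ± 0.23 (adjusted p = 0.000759). A second Saa3 row, 14790, gave a value for mouse 13 alone, 0.23, against 0.93 in the first. Saa1 was at 0.28 ± 0.13 (adjusted p = 0.0473) and did not pass when mouse 11 (adjusted p = 0.207) or mouse 12 (adjusted p = 0.156) was left out. It also did not pass when rows measured on 2 arrays were admitted for all genes (adjusted p = 0.0617). Saa1 has no such row, and its mean stayed at 0.28. The Saa transcripts are close copies and may cross-hybridize. The AP-1 gene Junb was at 0.70 ± 0.10 and the stress gene Ier3 at 0.42 ± 0.04. Birc5, an inhibitor of apoptosis that also acts in mitosis, had a mean of 0.57 ± 0.03 made from rows at 0.08 and 1.06, and had 4 very low rows near one of them. The other higher genes were Egr1 (1.21 ± 0.22), Ccn1 (1.06 ± 0.15), whose row had 4 very low rows nearby, and Il1b (0.51 ± 0.05).

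The 4 lower target genes include 3 acute-phase genes best known from liver. The lipopolysaccharide-binding protein gene Lbp was at -0.39, -0.38 and -0.57 in mice 11, 12 and 13 (mean -0.45 ± 0.11, adjusted p = 0.00971). Crp was at -0.30 ± 0.06 (adjusted p = 0.027) and the haem-binding Hpx at -0.28 ± 0.07 (adjusted p = 0.0347). Hpx had row means of -0.54 and -0.03, and Crp of -0.40 and -0.21. With 1 row per gene neither passed (adjusted p = 0.84 for Hpx and 0.0687 for Crp). Both also lost their calls without mouse 11 (adjusted p = 0.208 and 0.141), Hpx without mouse 12 (adjusted p = 0.0902) and Crp without mouse 13 (adjusted p = 0.0669). The fourth was Fos (-0.65 ± 0.38, adjusted p = 0.0176), with rows at -1.07 and -0.22 and 17 very low rows near one of them, and with 1 row per gene it was at -0.22 (adjusted p = 0.057). Several direct STAT3 targets did not pass. Bcl3 was at 0.10 ± 0.14 (adjusted p = 0.427), Myc at 0.01 ± 0.15 (adjusted p = 0.94) and Mcl1 at -0.07 ± 0.03 (adjusted p = 0.485). Pim1 had a value in mouse 13 alone, 0.30, and Lcn2 likewise, 0.48. These 5 genes were singled out after their values were seen.

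White blood cells also use this circuit, and their markers differed between mice. Of 13 measured macrophage markers of 18 listed, 6 were higher and 1 was lower. That is a called share of 53.8%, against 19.4% of all genes (9.48% higher and 9.97% lower). Without mouse 11 only 2 were higher, and Lyz2, Mpeg1, Aif1 and Fcer1g no longer passed (adjusted p from 0.123 to 0.251). The list medians were 0.38, 0.20 and 0.12 in mice 11, 12 and 13. Fcgr1 was at 0.65 ± 0.28, Ctss at 0.48 ± 0.13 and Csf1r at -0.72 ± 0.33, while Cd68, Cd14, Itgax, Cd163 and Ccr2 had no row measured on all arrays. Of 11 measured neutrophil markers of 16 listed, 3 were higher and 2 were lower (45.5% called), with medians of 0.01, 0.06 and -0.17. S100a9 was at 1.42 ± 0.38 and Ltf at -0.39 ± 0.05. Their second rows differed: S100a9 row 1609 was at 0.68 and 0.55 in mice 11 and 12, and Ltf row 18505 at -0.72 and 0.10 in mice 12 and 13. With these rows averaged in, limma gave S100a9 1.08 (adjusted p = 0.000742) and Ltf -0.36 (adjusted p = 0.0388). The mean of S100a8, 0.56 ± 0.06, was made from rows at 0.01 and 1.12, and with 1 row per gene it was 1.12. With any 1 mouse left out, 2 neutrophil markers were higher, and the higher call of Prtn3 ended (adjusted p from 0.055 to 0.268). Without mouse 11 or without mouse 12, 1 neutrophil marker was lower. Camp, Lcn2 and Csf3r had no row measured on all arrays. The macrophage median was highest in mouse 11, where Stat3 and Cebpb were lowest. The neutrophil median was lowest in mouse 13. Stat3 (0.65 and 0.64) and Cebpb (0.47 and 0.50) differed little between mice 12 and 13. The 2 Stat3 rows ranked mice 12 and 13 differently, so these mice are not ordered. An order over 3 mice is no test. The part of these cells in the values of the 8 genes was not tested. Hepatocyte markers had 0 of 3 measured genes past limma's test, with 1 at an unadjusted p under 0.05 and 0 by the plain test or with the trended prior, and Alb was at -0.26 ± 0.11 (adjusted p = 0.0511). Of the other marker lists, T and NK cells had 2 of 5 higher (Gzma 0.65 ± 0.27), B and plasma cells 2 of 4 lower (Jchain -0.67 ± 0.20) and fat cells 2 of 3 lower (Lpl -0.40 ± 0.24). A second Gzma row, 15428, gave a value for mouse 13 alone, -0.04, against 0.40 in the first. Podocyte markers had 2 of 6 higher and 2 lower, proximal tubule markers 2 of 5 higher, and thick ascending limb and distal tubule markers 3 of 5 lower. Collecting duct markers had 4 of 9 lower, and endothelial and mesangial markers 1 of 10 higher and 1 lower. The called shares were 40% for T and NK cells, 50% for B and plasma cells and 66.7% for fat cells. They were 66.7% for podocyte, 40% for proximal tubule, 60% for thick ascending limb and distal tubule and 44.4% for collecting duct markers. The endothelial and mesangial share of 20% is near the 19.4% of all genes. The lists are short and were chosen with earlier results known, so no share is independent evidence. Several of the marker calls ended with 1 mouse left out, which also leaves the test with fewer arrays. Of the 1407 calls over all genes, 676 remained without mouse 11, 860 without mouse 12 and 879 without mouse 13. The proximal tubule calls, Slc22a6 and Slc22a8, ended whichever mouse was left out (adjusted p from 0.0599 to 0.317). Of the fat cell calls, both ended without mouse 13 and that of Lpl also without mouse 12 (adjusted p from 0.0846 to 0.105). The higher podocyte calls, Nes (0.74 ± 0.09) and Actn4 (0.40 ± 0.10), held with any 1 mouse left out (highest adjusted p = 0.00566 and 0.0416). Both lower podocyte calls, Nphs1 and Lmx1b, ended without mouse 11 or mouse 12 (adjusted p from 0.062 to 0.191). Of the 2 T and NK cell calls, that of Cd4 ended without mouse 11 or mouse 13 (adjusted p = 0.101 and 0.0862). The lower endothelial call, Eng, ended without mouse 11 or mouse 13 (adjusted p = 0.0523 and 0.0635), and the higher one, Acta2, without mouse 12 (adjusted p = 0.0731).

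The means were recomputed under 8 alternatives, which include leaving out each mouse. Those of Stat3 (0.39 to 0.65), Cebpb (0.28 to 0.49) and Osmr (0.10 to 0.17) stayed above 0. Those of Socs3 (-0.62 to -0.34), Socs1 (-0.56 to -0.26) and Cebpd (-0.11 to -0.04) stayed below 0. These 6 genes had the same sign in all 3 mice, so leaving out 1 mouse could not change the sign of their means. The kept signs are therefore no measure of stability. Socs2 ranged from 0.01 to 0.38 and Lifr from -0.11 to 0.01, the last with the value of mouse 12 in row 4826 and the exact zeros averaged in. The 8 genes were chosen with these directions known.

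**Figure D4:**
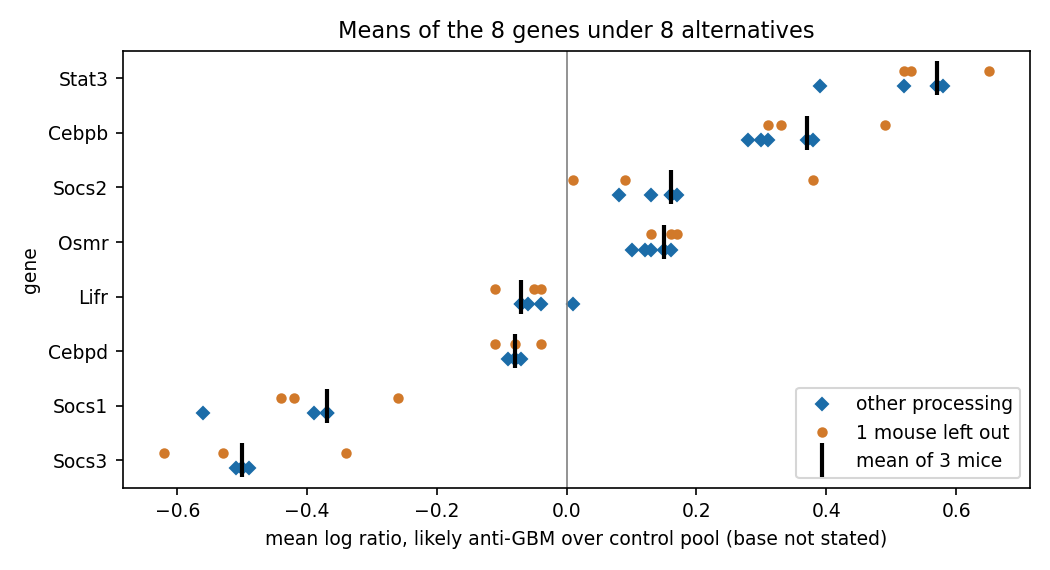
Mean log ratio (x axis, base not stated) of each of the 8 genes (y axis): the mean of 3 mice as a black line, the means with 1 mouse left out as circles and those under 5 other processing choices as diamonds. Stat3, Cebpb and Osmr lie above 0 and Socs1, Socs3 and Cebpd below 0 at every point, while Lifr has points on both sides of 0.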

How the data were processed

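Kidney RNA of 3 anti-GBM mice was measured on 2-colour arrays against 1 pool. The deposited table gives 1 log ratio per row and array. The authors' steps (scanner, background correction, normalization), the base and the direction: not given in the sources used here. Brightness and flags were not used. Rows were named from the platform annotation: of 16281 rows, 13738 name 1 gene, 52 several and 2491 none. The gene numbers of 13694 named rows were in RefSeq (GRCm38.p6). Exact zeros, 29.5% to 33.7% of an array, were read as no estimate. Arrays were centred on their medians (0.00767 to 0.0105), rows of a gene were averaged, and an intercept was fitted with limma 3.58.1 (lmFit, eBayes) in R 4.3.3. The fit was tested on simulated data. Python 3.11.15 read the sequences and drew the figures.

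The 8 genes, the 7 pathway lists and the 11 marker lists were chosen with earlier results of these data known. The rule for named genes was: the 8 genes, each pathway gene past the threshold, up to 3 genes with the largest means from a pathway list with no call, up to 3 markers a list with the smallest p, and the 2 nearest genes of each of the 8. Stat2, Cish, Ptpn2, Ghr, Cntfr and some of the markers whose calls ended with a mouse left out were added after their values were seen. Marker lists with little bearing on the 8 genes are given mostly as counts. The number of arrays limits the precision. Alternatives changed the centring, the zeros, the rows, the row neighbourhood, the mice and the test.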

Additional observations from a re-analysis of the deposited data

How the results depend on the processing

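Of the 64 values that the 8 genes took under alternatives, 62 moved by less than 1 SD over the mice. The others were Osmr at 0.10 with exact zeros read as a log ratio of 0 and Stat3 at 0.39 with 1 row per gene. The count of 62 is no measure of stability. Leaving out 1 of 3 mice cannot move a mean by 1 SD, and changes to the rows cannot move a gene with a single measured row. With 1 mouse left out, Osmr ranged from 0.13 to 0.17 and Stat3 from 0.52 to 0.65. The count of all genes past the test was 1407, and 726 to 1032 with 1 mouse left out, the lowest without mouse 11. Of the pathway genes 19 passed, and 13 to 17 with 1 mouse left out. With exact zeros read as 0, 1 of 10698 genes and 0 of 85 pathway genes passed in limma, with 2394 and 23 at an unadjusted p under 0.05. The plain test without moderation called 3 genes and 0 pathway genes, with 1634 and 17 at an unadjusted p under 0.05. The cause of these losses was not tested. No centring, rows on 2 arrays, 1 row per gene, local medians and a trended prior kept both counts within 1.5 times. No paired analysis was possible because there is 1 group of mice and 1 control pool. Signal over background was not used here.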
